A study of Mus musculus with 8 samples.

Results

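Regions that carried 5-hydroxymethylcytosine (5hmC) in induced pluripotent stem cells (iPSC), and that 1 of the 2 reprogramming methods had reached while the other had not, were examined. The members were chosen by peak calls alone. The peaks of all 8 lists were merged into 222732 regions, and a region was kept when it held a peak in iPSC and in 1 or more lists of the OySyNyK method, and none in fibroblasts or in any of the 3 lists of the OSNK method. There were 6349 such regions, called OySyNyK-only below, among 52626 regions with an iPSC peak and 40966 of these without a fibroblast peak. Because presence and absence in the 8 lists chose the members, all counts of this kind are descriptions.

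The libraries were mouse embryonic fibroblasts (MEF), which the protocol names OG2-MEFs, intermediates at D1, D3 and D5 (read as days) of each method, and iPSC. From general knowledge of this method, OSNK stands for Oct4, Sox2, Nanog and Klf4, and OySyNyK for the same factors with Oct4, Sox2 and Nanog fused to the transactivation domain of YAP. Medium for iPSC generation contained vitamin C and LIF, and iPSC were kept on mitomycin C-treated MEF feeders, and the amount of feeder DNA in that library was not measured. The iPSC library is titled with the OySyNyK factors and is read as a line made that way. Thus the end point came from 1 of the methods, no OSNK-derived iPSC were analysed here, and the method cannot be told apart from the origin of the end point. Each group had 1 library and no test between libraries was possible. Intervals are exact 95% binomial intervals for shares and order-statistic intervals for medians. They cover counting error only, and neighbouring regions are not independent.

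5hmC is made from 5-methylcytosine by the TET dioxygenases, which use iron and oxoglutarate and whose activity vitamin C is known to raise. It is an intermediate of DNA demethylation and is also found as a lasting mark at enhancers, promoters and gene bodies. Fibroblasts have to lose methylation at regulatory elements of pluripotency genes on the way to iPSC, and the TET enzymes are known to take part in this. The capture used here attaches a biotin to 5hmC through a sugar, so that a peak marks a stretch from which many labelled fragments were recovered.

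The MEF list held 65776 peaks, the intermediate lists 70592 to 116302 and the iPSC list 54938. The authors' score of a peak, which in MACS rises as the peak's p-value falls, began at 50 in every list. Sequencing depth is unknown, so a missing peak means only that none was called. The lists use a mouse assembly other than the annotation at hand, and regions are therefore given by position in the lists' own assembly, without genes or sequence. A printed start is the first base inside the region, which is the base after the start value in the lists.

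OySyNyK-only regions made up 15.5% of the 40966 iPSC regions without a MEF peak (95% interval 15.1 to 15.9). The mirror class, OSNK-only, held 1908 regions or 4.66% (4.46 to 4.87). Both methods had reached 8507 regions, or 20.8%, and neither had reached 24202, or 59.1%. The number of OySyNyK-only regions was thus 3.33 times that of OSNK-only regions (3.16 to 3.50), although the OSNK lists held more peaks at D1 and D5. By the rule, leaving out a list of either method can only lower that method's count and cannot lower the other's. Ratios from such unbalanced settings are therefore in part built in. Without OySyNyK D5, 3326 regions were OySyNyK-only and 2892 OSNK-only, a ratio of 1.15. Without OSNK D5 the counts were 8221 and 1163, a ratio of 7.07, and without D5 of both methods they were 4727 and 1676, a ratio of 2.82. Without OySyNyK D3 the ratio was 2.10. With equal numbers of peaks in all lists there were 6253 and 1486 regions, and with a score of at least 100 in all lists 1508 and 308. Each of these settings kept more OySyNyK-only than OSNK-only regions, by differing factors.

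The other way round, the merged regions held 33995 that had an OySyNyK peak but no MEF or OSNK peak. Of these, 18.7% held an iPSC peak (95% interval 18.3 to 19.1). Of the 48060 regions with an OSNK peak but no MEF or OySyNyK peak, 3.97% did (3.80 to 4.15). The share depended on the day. Among OySyNyK regions seen at D1 only, 3.77% held an iPSC peak, and at D3 only 10.5% did. At D5 only the share was 30.1% of 10034 regions (29.2 to 31.0). It was 33.9% of 3873 regions for D3 and D5 together, and 31.2% of 1460 regions (28.8 to 33.6) for all 3 days. The OSNK regions showed lower shares for each pattern of days, from 1.16% at D1 only to 7.92% at D3 and D5. The 4 OySyNyK patterns with a D5 peak had the 4 highest shares, since D1 and D5 together gave 19.5%.

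Most OySyNyK-only regions appeared late. At D1, 1024 of the 6349 regions held a peak, which is 16.1% (95% interval 15.2 to 17.1). At D3 2959 did (46.6%), and at D5 4905 (77.3%). By first day, 36.3% appeared at D3 (35.1 to 37.5) and 47.6% at D5 (46.4 to 48.9). The latter, 3023 regions, were the largest of the 7 patterns of days. The patterns D3 and D5 with 1311 regions, D3 only with 991 and all 3 days with 455 followed. A single day held the peak of 67.2% of the regions, and 22.7%, or 1444 regions, had no peak at D5 although OySyNyK had marked them before and iPSC carried them. Patterns without a gap, from the first day through D5, made up 75.4%. A gap at D3 alone was seen in 116 regions. With equal numbers of peaks in all lists, 10.2% were first seen at D1 and 58.5% at D5. Within the iPSC list, the median score was 85.9 for regions with D3 and D5 peaks, 81.1 for D5 only and 80.3 for all 3 days. It was 73.7 for D1 and D5, 73.1 for D1 and D3, 70.0 for D3 only and 66.0 for D1 only.

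**Figure D1:**
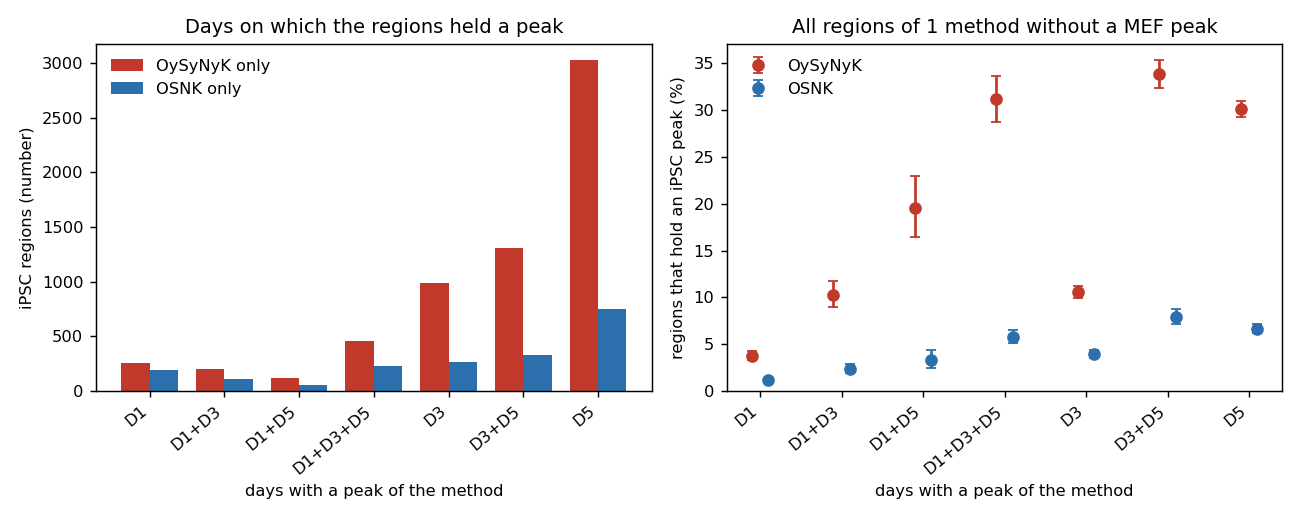
Left, number of iPSC regions reached with OySyNyK only (red) or OSNK only (blue) by the days on which they held a peak of that method; right, share of all regions of that method without a MEF peak or a peak of the other method that held an iPSC peak, with exact 95% intervals. The D5-only bar is the highest for both classes, with 3023 and 745 regions, and every OySyNyK pattern that includes D5 lies above every OSNK pattern on the right.

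Regions reached with both methods held OySyNyK peaks earlier and on more days. Of those 8507 regions, 59.0% held an OySyNyK peak at D1 already (95% interval 58.0 to 60.1) and 11.6% appeared at D5. On all 3 OySyNyK days 45.0% were present, against 7.17% of the OySyNyK-only regions (6.54 to 7.83). The latter share was 2.75% when a score of at least 100 was asked of the OySyNyK peaks. No minimum was asked of the regions of both methods in that setting, so 2.75% is not set against 45.0%. A D3 peak was found again at D5 in 81.9% of the regions of both methods and in 59.7% of the OySyNyK-only regions (57.9 to 61.5). A D1 peak was found again at D3 in 88.5% and 64.2%. For OSNK-only regions the return from D3 to D5 was 60.2% (57.0 to 63.4), which overlaps the interval of the OySyNyK-only regions. OSNK-only regions more often had a peak at D1, in 29.9% (27.9 to 32.0), and less often at D5, in 71.0%. A region with peaks in more lists is by the rule more likely to fall in the class of both methods, and these shares are given without a test for that reason.

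Inside the OySyNyK lists the peaks of OySyNyK-only regions were weak, whereas inside the iPSC list they were stronger than usual. Their median score at D1 was 66.9 (quartiles 56.7 and 85.0), against 95.8 for all peaks of that list. The D3 median was 69.9 against 84.2, and that at D5 was 69.4 against 75.8. In the list of D1 this median stood at the 25.6th percentile, at D3 at the 35.0th and at D5 at the 41.7th. OSNK-only regions were also below the median in their own lists, with 73.9 against 104.5 at OSNK D1, 75.3 against 91.4 at D3 and 67.4 against 81.3 at D5, which are percentiles 29.5, 36.2 and 34.1. In iPSC the OySyNyK-only median was 78.8 (95% interval 77.6 to 79.9), against 71.0 for the list, at the 59.8th percentile. The same iPSC median was 75.7 in regions of both methods, 66.0 in OSNK-only regions (64.7 to 67.4) and 66.3 in regions found in iPSC alone. In iPSC, 2029 of the OySyNyK-only regions, or 32.0%, scored at least 100, and 29.1% of the regions of both methods did. This share was 13.6% for OSNK-only regions, 15.8% for regions found in iPSC alone and 23.6% for all peaks of the iPSC list. Scores of different lists depend on depth and are not compared with each other. A region's score is that of its best peak, while list medians are over single peaks. The rule leaves out regions with a called MEF or OSNK peak, and how far this alone lowers the OySyNyK scores was not tested.

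**Figure D2:**
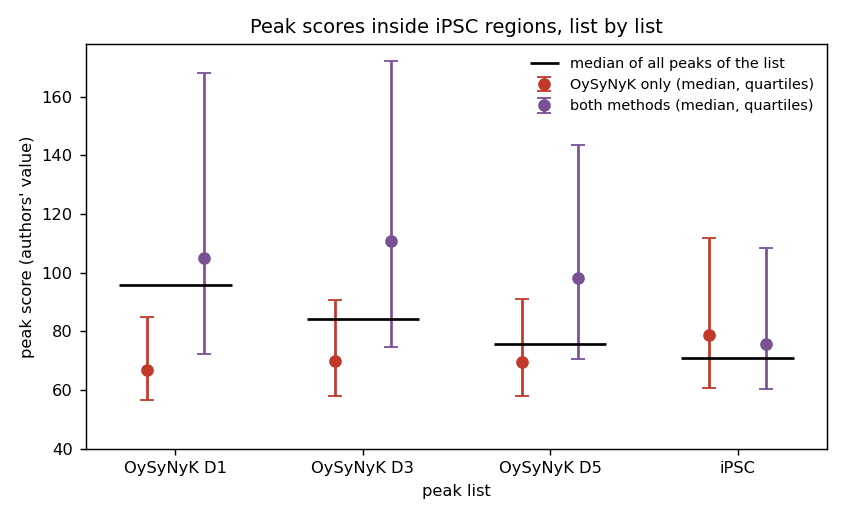
Peak score, the authors' value, in the 3 OySyNyK lists and the iPSC list for regions reached with OySyNyK only (red) and with both methods (purple), as median and quartiles; black lines give the median of all peaks of each list. The red medians lie below the black line at D1, D3 and D5 and above it in iPSC.

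OySyNyK-only regions were most frequent among the strongest iPSC peaks. When the 40966 iPSC regions without a MEF peak were ordered by iPSC score and divided into 10 equal parts, OySyNyK-only regions made up 11.8% of the lowest part (95% interval 10.8 to 12.8) and 27.2% of the highest (25.8 to 28.6). OSNK-only regions made up 4.95% of the lowest (4.31 to 5.66) and 2.25% of the highest (1.81 to 2.75). In the lowest part there were 483 and 203 regions, a ratio of 2.38, and in the highest 1114 and 92, a ratio of 12.1 (9.78 to 15.1). Neither share changed steadily: the OySyNyK-only share stayed between 10.7% and 12.2% in the lowest 4 parts and was higher in each part after that, whereas the OSNK-only share lay between 4.56% and 5.83% in the lowest 8 and dropped to 3.64% in the next. Regions of both methods also made up more of the highest part, 32.9%, than of the lowest, 16.4%. Ordering by the width of the iPSC peaks gave ratios of 1.48 in the narrowest part and 11.6 in the widest. With all peaks set to 500 bp the ratios by score were 2.46 and 11.4. With equal numbers of peaks they were 2.13 and 17.8, and with a score of at least 100 in all lists 2.91 and 18.9. Asking this score of the reaching method only gave 1.42 in the lowest part (0.982 to 2.05), an interval that includes equal numbers.

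**Figure D3:**
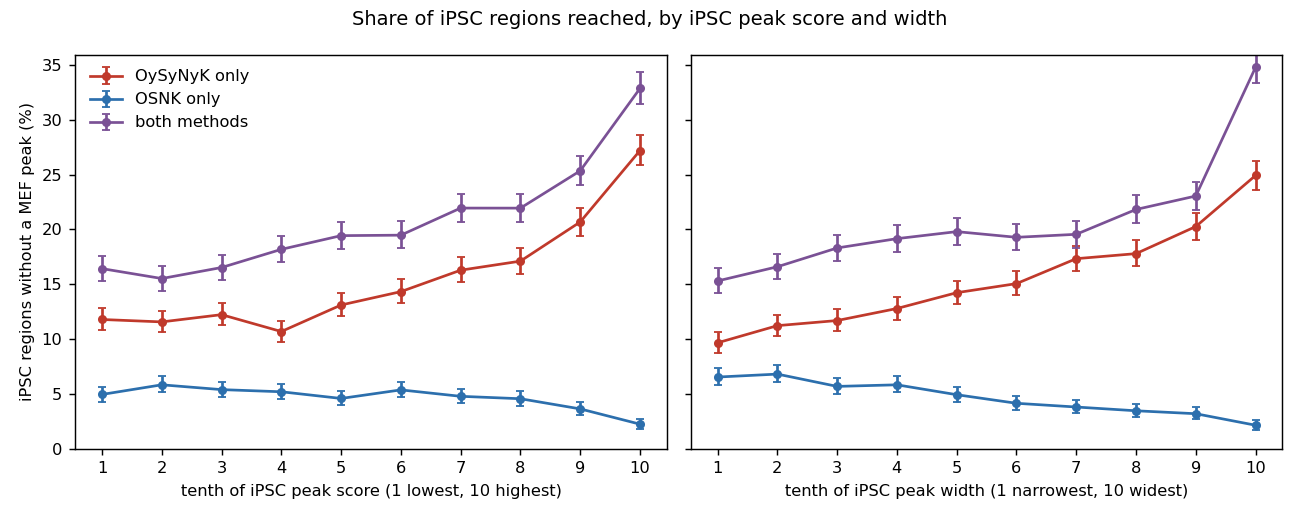
Share of iPSC regions without a MEF peak that were reached with OySyNyK only (red), OSNK only (blue) or both methods (purple), in 10 equal parts by iPSC peak score (left) and iPSC peak width (right), with exact 95% intervals. By score, red is 11.8% in the lowest part and 27.2% in the highest, and blue is 4.95% and 2.25%.

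The regions were short. Their median length was 873 bp (95% interval 860 to 882), from 314 to 4918 bp, and together they covered 6.45 Mb. A single iPSC peak was present in 6235 of them and 2 or 3 in the other 114. Median iPSC cover was 699 bp (691 to 709), against 550.5 bp (543 to 560) in OSNK-only regions, 669 bp in regions of both methods and 599 bp in regions found in iPSC alone. The part of an iPSC peak that the OySyNyK peaks covered was larger on later days. Where a D1 peak overlapped, it covered a median of 70.0% of the iPSC peak (quartiles 47.9 and 88.1). At D3 the median was 81.0% and at D5 88.7% (73.5 and 99.7). Median peak width of these lists as a whole was 662, 680 and 703 bp. In 53 cases a D1 peak lay in a region without touching its iPSC peak, since other peaks joined the pieces, and this was so in 56 cases at D3 and 24 at D5. Across regions, the width at D5 and in iPSC had a Spearman's rho of 0.63 (4905 regions), whereas the scores had one of 0.18, both given as descriptions over regions of the same 2 libraries.

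The highest iPSC scores among the 455 regions present on all 3 days were taken by rule. The first, chr12:113975647-113978028, had peaks of 660, 1330 and 2153 bp at D1, D3 and D5 and of 2382 bp in iPSC. Its scores were 71.1, 84.5, 53.1 and 611 in these lists. Its iPSC peak was among the strongest of the list, at the 99.9th percentile, while its OySyNyK peaks were near or below their lists' medians. An OSNK peak lay 348 bp away. The second, chr12:99925475-99927955, had peaks of 852, 1189, 2205 and 2007 bp with scores of 99.6, 71.8, 77.3 and 538 in the same order. The third, chr17:56328362-56331000, grew from 563 bp at D1 to 957 bp at D3, 1294 bp at D5 and 2639 bp in iPSC. The next, chr12:112498191-112500176 and chr2:37645682-37648018, had iPSC scores of 447 and 429. At rank 10, chr9:21815563-21817905 stood apart in its distance from other peaks, with 16.6 kb to the nearest OSNK peak and 44.1 kb to the nearest MEF peak. Its scores were 80.8, 89.4 and 170 over the days and 347 in iPSC. Among all 10, the iPSC scores lay between 347 and 611 and the iPSC cover between 1597 and 3719 bp. The distance to an OSNK peak was below 3 kb in the other 9.

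Regions that appeared at D3 and were kept at D5 included the member with the highest iPSC score of all, chr7:51795334-51799569. It was empty at D1, had a peak of 902 bp (score 61.2) at D3, one of 2288 bp (128) at D5 and one of 4236 bp (838) in iPSC. The next, chr2:180966631-180971389, had a peak of 858 bp at D3, one of 954 bp at D5 and 4712 bp of cover in iPSC, with 8.16 kb to the nearest OSNK peak and 142 kb to the nearest MEF peak. The region chr10:76504250-76505972 had the highest D5 score among the members, 364, with 166 at D3 and 542 in iPSC. The other 2 of the 5 highest were on chromosomes 4 and 10, with iPSC scores of 540 and 508. All 5 were wider in iPSC than at D3, and all were picked for a high iPSC score.

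Among the 3023 regions seen at D5 only, chr2:168579564-168582130 had the highest iPSC score, 653 over 2567 bp, with a D5 peak of 1157 bp and a score of 59.7. The second, chr12:85989077-85991998, had a D5 peak of 1392 bp (score 113) and an iPSC peak of 2922 bp (636), and no OSNK or MEF peak within 32.5 kb. The third, chr17:35041561-35046091, was covered to 2928 bp at D5 and to 4531 bp in iPSC. The other 2 of the 5, on chromosomes 7 and 3, had iPSC scores of 567 and 544. All 5 were wider in iPSC than at D5, and these too were picked for a high iPSC score.

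The longest iPSC cover was at chr11:117939395-117944312, with 4737 bp in iPSC, 4157 bp in 3 peaks at D5, 908 bp at D3 and nothing at D1. At chr4:155542739-155547188 the iPSC cover was 4402 bp, with 1059 bp at D3 and 1893 bp at D5, and the nearest MEF and OSNK peaks were 12.1 and 12.3 kb away. The other 3 of the 5 longest are the regions on chromosomes 2, 17 and 7 described above.

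Most OySyNyK-only regions lay near peaks of the lists from which they were absent. The nearest OSNK peak was at a median distance of 2692 bp and the nearest MEF peak at 7962 bp. An OSNK peak lay within 1 kb of 1588 regions (25.0%) and a MEF or OSNK peak within 100 bp of 196 (3.09%). No MEF or OSNK peak was found within 10 kb of 879 regions, which is 13.8% (95% interval 13.0 to 14.7), or within 100 kb of 10 regions. The share without one in 10 kb was 21.7% with equal numbers of peaks and 27.0% with a score of at least 100, settings that leave fewer MEF and OSNK peaks. OSNK-only regions were like them in this respect, with 13.6% at least 10 kb from any MEF or OySyNyK peak (12.1 to 15.2). Of the regions found in iPSC alone, 23.2% were that far from a MEF or OSNK peak. The member farthest from such peaks, chr3:12919539-12920038, had 567 kb to the nearest MEF peak and 600.0 kb to the nearest OSNK peak, a D5 score of 61.2 and an iPSC score of 54.3. It was a weak peak in both lists.

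At the edge of the rule, 162 regions had an OSNK peak within 100 bp that did not overlap them. The closest, chr19:37899387-37900293, was 1 bp from an OSNK peak, with a score of 51.3 at D1 and 80.2 in iPSC. The next were chr5:104246071-104246615 at 2 bp and chr6:51724556-51725055 at 5 bp. Just outside, chr15:100311043-100313415 was left out because an OSNK D5 peak (score 58.2) touched it with 0 bp of overlap, and chr1:91039860-91043173 and chr17:47410225-47411933 were left out by overlaps of 1 bp. Such overlaps under 50 bp were found in 11 of the 8507 regions of both methods. More regions lay near the score minimum of 50. The best OySyNyK score was under 60 in 1781 members, or 28.1%. Of all peaks of the OySyNyK lists, 16.6% at D1, 20.6% at D3 and 25.1% at D5 scored under 60. The best OSNK score was under 60 in 978 regions of both methods, or 11.5%. Of all peaks of the OSNK lists, 14.7%, 17.3% and 22.4% did on these days. The shares of the OySyNyK and OSNK lists are not compared with each other. Both the iPSC score and the best OySyNyK score reached 100 in 560 members (8.82%), and both were under 60 in 510 (8.03%). These counts were not made in the other classes.

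Among iPSC regions without a MEF peak, the one nearest to a member was found in iPSC alone in 55.6%, against 59.1% over all such regions. The nearest iPSC region without a MEF peak was itself OySyNyK-only for 18.8% of the members (95% interval 17.8 to 19.8), against 15.5% over all such regions. For OSNK-only regions an OSNK-only neighbour was found in 8.70% (7.47 to 10.1), against 4.66%, and for regions of both methods a like neighbour in 30.8%, against 20.8%. Another iPSC region lay within 10 kb of 75.2% of the OySyNyK-only regions and of 74.0% of the regions of both methods. This share was 64.8% for OSNK-only regions and 66.5% for regions found in iPSC alone. An iPSC region that also held a MEF peak lay within 10 kb of 28.7% of the OySyNyK-only regions (27.6 to 29.8). That was against 32.6% for regions of both methods, 23.1% for OSNK-only regions and 20.3% for regions found in iPSC alone.

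The 6349 regions fell in 4114 windows of 100 kb, 2717 of which held 1 member. Windows with 5 or more numbered 77 and contained 446 members, or 7.02%. No window held more than 4 OSNK-only regions, a class with fewer regions, 1908 in all. The window with the most OySyNyK-only regions, chr5:116000001-116100000, held 11 of them beside 5 regions of both methods, 7 found in iPSC alone and no OSNK-only region. Of the 11, 3 had a peak at D1, 6 at D3 and 10 at D5. Cover by all peaks of this window was 8.62% in MEF, 11.2%, 12.3% and 9.75% over the OSNK days, 14.5%, 23.1% and 28.9% over the OySyNyK days, and 36.0% in iPSC. The window was picked for its members, which by the rule add cover in OySyNyK and iPSC lists and none in MEF or OSNK lists. These differences in cover are therefore in part built in. The iPSC scores of its members ranged from 51.8 to 233.

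**Figure D4:**
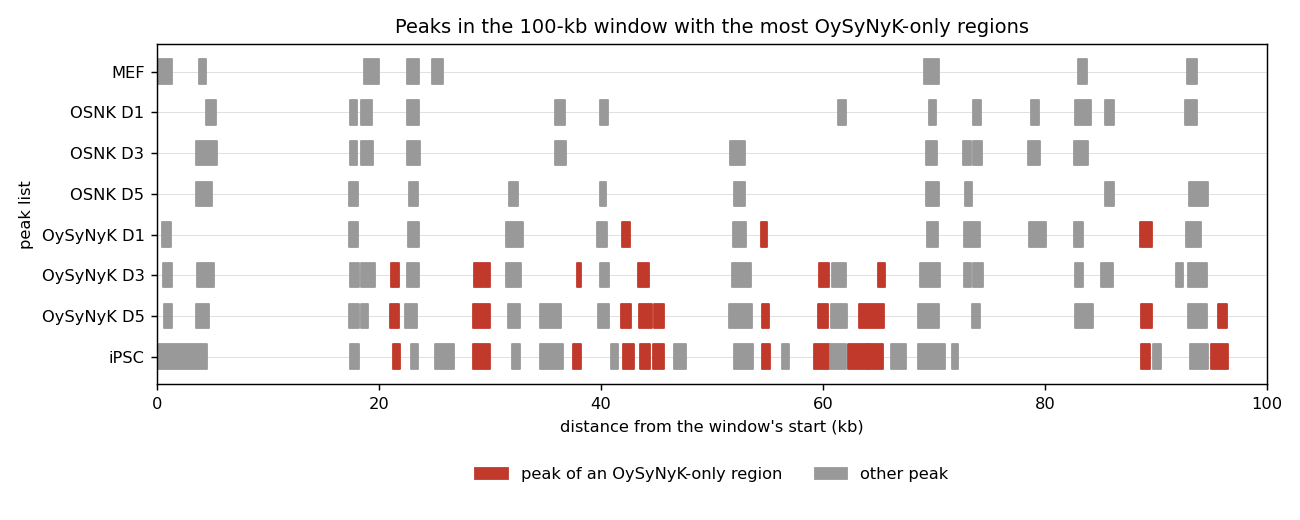
Peaks of the 8 lists along the window on chromosome 5, by distance from its start in kb; red bars belong to the 11 OySyNyK-only regions and grey bars to all others. Of the 11 regions, 3 carry a red bar at D1, 6 at D3 and 10 at D5.

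On chromosome 11, the window chr11:79400001-79500000 held 10 members, with 3, 7 and 6 of them present at D1, D3 and D5. In chr5:121100001-121200000, also with 10, none was present at D1 and 8 each at D3 and D5. Cover of that window was 1.18% at OSNK D1 and 5.70% at OSNK D5, against 3.45% and 17.4% with OySyNyK and 14.2% in iPSC. It too was picked for its members, so that this contrast between the methods is in part built in. The window chr11:117900001-118000000 held 9 and chr11:116100001-116200000 held 8, the latter beside 1 OSNK-only region.

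Chromosomes differed in the share of their iPSC regions that OySyNyK alone had reached. The share was 19.5% on chromosome 16, from 442 regions (95% interval 15.9 to 23.5), 18.1% on chromosome 4 (16.8 to 19.5), 18.0% on chromosome 11 (16.7 to 19.3) 17.3% on chromosome 5 (16.1 to 18.7) and 16.9% on chromosome 7 (15.6 to 18.4). These intervals lie above the overall 15.5%. It was 11.6% on chromosome 12 (10.5 to 12.7), 11.8% on chromosome 6 (9.97 to 13.8), 13.1% on chromosome 14 (11.5 to 14.7) and 13.4% on chromosome 3 (11.9 to 15.0), with intervals below 15.5%. The intervals of the other chromosomes include it. The OSNK-only share lay on the other side of its overall 4.66% on each of these, from 3.25% on chromosome 4 to 6.37% on chromosome 6. On chromosomes 11, 14 and 16, with 4.13%, 5.40% and 4.30%, its interval includes 4.66%. The ratio of OySyNyK-only to OSNK-only regions ran from 1.85 on chromosome 6 to 5.57 on chromosome 4. Chromosome 12 had 3392 iPSC regions without a MEF peak, and 64.9% of them were found in iPSC alone, against 59.1% in all. Chromosome X had 92 regions and a share of 18.5% (11.1 to 27.9).

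**Figure D5:**
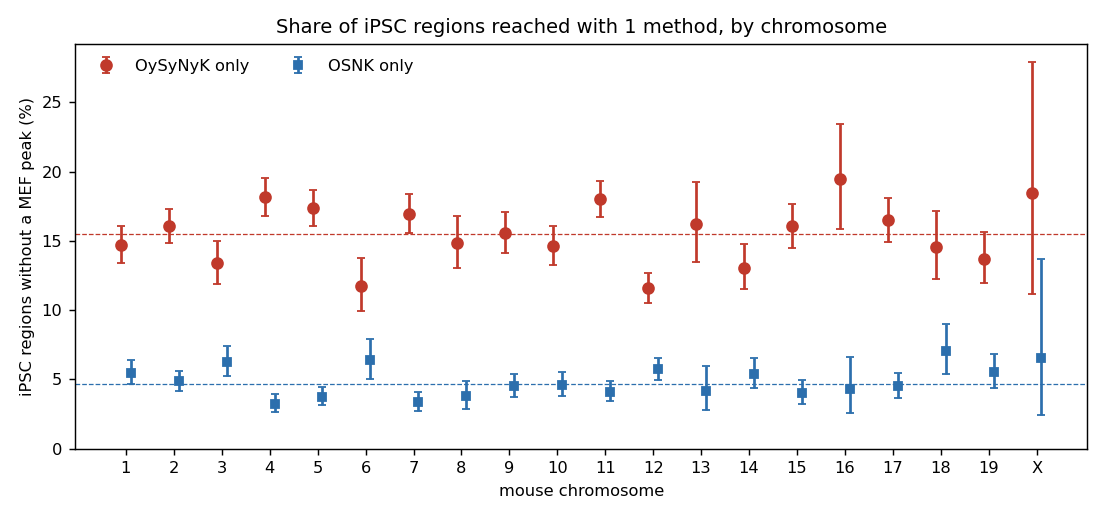
Share of iPSC regions without a MEF peak reached with OySyNyK only (red) or OSNK only (blue) on each chromosome, with exact 95% intervals; dashed lines give the shares over all chromosomes, 15.5% and 4.66%. The red intervals of chromosomes 4, 5, 7, 11 and 16 lie above the red line and those of 3, 6, 12 and 14 below it.

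Along chromosomes, OySyNyK-only regions were denser towards the distal end. With the span from the first to the last peak of each chromosome divided into 5 equal parts, the last part held 35.9% of them (95% interval 34.7 to 37.1) and the first 12.8%. The last part held 26.7% of the OSNK-only regions (24.7 to 28.7), 32.8% of the regions of both methods (31.8 to 33.8) and 33.5% of those found in iPSC alone. It held 26.5% of all MEF peaks. Within the last 10 Mb of peaks lay 15.5% of the OySyNyK-only and 11.0% of the OSNK-only regions. The OySyNyK-only interval for the last part lies above those of the other 3 iPSC classes.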

How the data were processed

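Genomic DNA was sonicated, its 5hmC was tagged with a sugar and biotin, and captured fragments were sequenced in 8 libraries, 1 per group, per the labels' protocols. Per the submitters' processing notes, Bowtie and MACS were used, and the builds listed are the human hg18 and NCBI36. Tool settings and versions are not stated in the sources used here, and a human build goes against the mouse chromosomes of the lists. The authors deposited 1 peak list per library, each peak with a score, read as the transformed p-value that MACS writes; on that scale the minimum of 50 is 1e-05. The lists hold mouse chromosomes, with chromosome 1 reaching 197168143, and no annotation of their assembly was used here, so the planned gene assignment was left out. Samples were grouped by title. The regions and all comparisons were chosen with earlier results of these data known.

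Peaks that overlapped or touched were merged and classed by which lists had a peak in them, with pandas 2.3.3 and scipy 1.17.1 (numpy 2.4.6, Python 3.11.15). bedtools 2.31.1 gave the same 6349 regions, and the classes were recovered exactly on simulated data with 5000 planted regions. A region's score is its best peak's, its cover the sum of peak widths. Distances run from region edge to peak edge. Shares have exact (Clopper-Pearson) 95% intervals. Regions were named by rule: the highest iPSC scores among members present on all 3 days (10), first seen at D3 and present at D5 (5) and seen at D5 only (5), the longest iPSC cover (5), the windows of 100 kb with most members (5), the regions farthest from MEF and OSNK peaks (3), those nearest to an OSNK peak (3) and those the rule just left out (3). Alternatives were equal numbers of peaks (the highest-scoring of each list), only peaks scoring 100 or more, peaks of 500 bp, peaks within 1 kb merged, iPSC peaks taken one by one, at least 50% of the iPSC peak covered, and a score of at least 100 asked of the reaching method only. Leaving out libraries or days, and all alternatives for the ratio by iPSC score, were added after seeing the data. Figures were drawn with matplotlib 3.10.9.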

Additional observations from a re-analysis of the deposited data

How the results depend on the processing

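Depth is unknown and each group had 1 library, so none of these values carries the variation between cultures. No paired analysis was possible because every group had 1 library. The ratio of OySyNyK-only to OSNK-only regions was above 1 in each alternative run. Leaving out 1 library or 1 day gave 3326 to 8221 OySyNyK-only regions and ratios of 1.15 to 7.07, the lowest without OySyNyK D5 and the highest without OSNK D5. With a score of at least 100 there were 1508 regions and the ratio was 4.90. First days were then D1 for 17.8%, D3 for 38.5% and D5 for 43.8%, and 8.22% were present on all 3 days. The iPSC medians were a score of 144.8, raised by the minimum itself, and a width of 1076 bp, 27.0% lay at least 10 kb from a MEF or OSNK peak, and the ratios in the highest and lowest 10% by iPSC score were 18.9 and 2.91. With equal numbers of peaks the ratio was 4.21, the first-day shares 10.2%, 31.3% and 58.5%, the share on all 3 days 5.26%, the medians 82.1 and 720 bp, the share at 10 kb or more 21.7% and the ratio in the highest 10% 17.8. With peaks within 1 kb merged these were 2.58, then 19.5%, 38.2% and 42.2%, then 7.95%, 711.5 bp, 19.9% and 8.47, with 1.82 in the lowest 10%. Taking iPSC peaks one by one gave a ratio of 2.92. With at least 50% of the iPSC peak covered, D1 and D5 were the first day of 12.6% and 51.5%, 5.21% were present on all 3 days, and the medians were 77.4 and 682 bp. With a score of at least 100 asked of the reaching method only, 1310 regions remained, with a ratio of 2.92, first days D1 and D5 in 11.3% and 53.1%, all 3 days in 2.75%, medians of 90.7 and 785 bp, 12.4% at 10 kb or more, and ratios of 17.6 and 1.42 in the highest and lowest 10%. Peaks of 500 bp set the width to 500 bp by construction and gave 6798 regions and a ratio of 3.44. The cause of the other changes was not tested. With equal numbers of peaks, the share of all members that lay on a chromosome stayed within its interval for 20 of 20 chromosomes. The share of each chromosome's iPSC regions that was OySyNyK-only was not computed in this setting.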
